A study of Mus musculus with 899 samples.

Results

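Plasma microRNA (miRNA) was compared between irradiated and sham irradiated C57Bl/6 mice 2 days after exposure of the thorax. The members are all samples whose labels give the strain C57Bl/6 and the time point D2, and they number 48, beside 851 other plasma samples of the series. Of these, 32 mice were irradiated and 16 were sham irradiated, with 1 sample per mouse. Irradiated mice received a single X-ray dose to the whole thorax while the rest of the body was shielded with lead, and the sham group carries the label irradiated FALSE at the same strain and time point. No transgene or drug arm is named in the labels. The mice were young adults, and each arm held as many females as males. The titles carry the codes G1 and G3, and each combination of code and sex held 8 irradiated and 4 sham irradiated mice. Every one of these 48 mice had also been bled before irradiation (PT), and those 48 samples were used as a second reference.

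A miRNA is a short single-stranded RNA that silences messenger RNAs through its seed, the bases 2 to 8 from its 5′ end. Cells release miRNA into plasma inside vesicles and bound to proteins, so that plasma carries a mixture from blood cells, vessel wall and solid organs. Some members are largely restricted to 1 source. Examples are miR-122 in hepatocytes, miR-150 in mature lymphocytes, miR-375 in pancreatic islets and other neuroendocrine and mucosal epithelial cells, and miR-202 in the gonads. Others follow a pathway, such as the miR-34 family, whose genes are direct targets of the p53 transcription factor that is activated by DNA damage. Lymphocytes are among the most radiosensitive cells of the body.

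The results turned on a small number of sequences, taken here from RefSeq (GRCm38.p6). Of the 32 miRNA that passed the test, 28 matched an entry in that table, as did 415 of the 483 miRNA tested. No entry was found for miR-375-3p, miR-150-5p, miR-122-5p and miR-30d-5p, so their sequences are not shown. The first set shows some of the called miRNA with an entry, with the seed in capitals. It also holds miR-34b-3p and miR-99a-5p, relatives of called miRNA that were not called themselves.
miR-155-5p: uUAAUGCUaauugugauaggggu
miR-192-5p: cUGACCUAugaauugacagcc
miR-802-5p: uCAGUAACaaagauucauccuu
miR-34a-5p: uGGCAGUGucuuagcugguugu
miR-34c-3p: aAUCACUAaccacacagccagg
miR-34b-3p: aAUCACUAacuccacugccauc
miR-125b-5p: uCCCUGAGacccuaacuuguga
miR-125a-5p: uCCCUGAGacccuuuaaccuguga
miR-100-5p: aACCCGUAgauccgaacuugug
miR-99a-5p: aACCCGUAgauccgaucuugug
miR-202-5p: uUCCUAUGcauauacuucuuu
miR-202-3p: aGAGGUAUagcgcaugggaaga
The miR-155 hairpin lies at chr16:84714140-84714204 on the plus strand in an exon of its host transcript Mir155hg. The miR-192 hairpin at chr19:6264844-6264932 (plus strand) and the miR-802 hairpin at chr16:93369720-93369816 (plus strand) fall between annotated genes. The miR-34a hairpin at chr4:150068454-150068555 (plus strand) overlaps an exon of the transcript Gm37795, and miR-34c at chr9:51103034-51103110 (minus strand) lies in an intron of Btg4, which is on the opposite strand. Both miR-202 arms come from 1 hairpin at chr7:139957689-139957760 (minus strand), in an exon of the long non-coding RNA Gm2044. miR-100 lies at chr9:41531425-41531504 (plus strand), in an intron of 3110039I08Rik, and the same host holds 1 of the copies of miR-125b at chr9:41581926-41582002 (plus strand).

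The second set shows members of the let-7 family, which share the seed GAGGUAG and differ in their 3′ parts, because only some of them passed the test.
let-7c-5p: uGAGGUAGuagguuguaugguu
let-7b-5p: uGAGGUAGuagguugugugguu
let-7a-5p: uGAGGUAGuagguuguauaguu
let-7f-5p: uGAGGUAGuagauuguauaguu
Counted from 1 at the 5′ end and with let-7c-5p as the reference, let-7b-5p differs by A17G and let-7a-5p by G19A, so that each is 1 base away from let-7c-5p. Reads of such relatives can be exchanged by sequencing or alignment errors, and their values are to that extent uncertain. let-7b at chr15:85707319-85707403 and 1 of the copies of let-7c at chr15:85706603-85706697 lie on the plus strand in exons of Lncppara.

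Read depth differed between the arms. Total reads per sample had a median of 859418 (413278 to 2224661) in irradiated mice and of 1301000 (664728 to 3303029) in sham mice, and the difference on the log2 scale was −0.82 (permutation test, two-sided, p = 0.00016, adjusted over 6 library measures 0.00096). Before irradiation the totals of the same mice differed by 0.23 in the other direction (permutation p = 0.351, adjusted 0.421). Irradiated samples had a median of 379.5 detected miRNA against 431 in sham samples (permutation p = 0.00258, adjusted 0.00774). miR-16-5p was the most abundant sequence in all 48 samples, with 50.1% of irradiated and 52.4% of sham reads. The log2 ratio of miR-451a, a red blood cell miRNA, to miR-23a-3p is a usual index of hemolysis. Its mean was −0.77 in the irradiated arm (SD 1.01, n = 32) and −0.16 in the sham arm (SD 0.83, n = 16), with a permutation p of 0.0415 (adjusted 0.0829). The first principal component, with 25.1% of the variance, ran from −6.36 to −0.10 in G1 and from −2.97 to 6.40 in G3, with 1 G3 mouse inside the G1 range. The part of hemolysis in the results was not tested. Title code and depth entered alternative models, whose values are given beside the results they change.

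At day 2, 32 of the 483 miRNA tested differed between irradiated and sham mice, which is 6.63% of those tested, with 11 higher (2.28%) and 21 lower (4.35%) in irradiated mice. A miRNA was called when the adjusted p of edgeR's quasi-likelihood test (Benjamini-Hochberg over all 483) was under 0.05. The rises ranged from 1.21-fold for miR-744-5p to 9.45-fold for miR-202-3p and the falls from 1.28-fold for miR-30d-5p to 7-fold for miR-7646-5p. The median log2 fold change over all tested miRNA was −0.06. With DESeq2's size factors in place of TMM scaling this median was 0.04 and the split was 15 higher and 13 lower, so small differences are to be read against that shift. The count fell to 7 without G3 females, rose to 58 without G3 males, and was 20 with title code, sex and log2 total reads as covariates, a model chosen after seeing the data in which 16 of the 32 passed and all 32 had the same sign. The 16 that did not pass with this depth term were miR-186-5p, miR-202-3p, miR-202-5p, miR-15b-3p, miR-100-5p, miR-26b-5p, miR-93-3p, miR-146b-5p, miR-125a-5p, miR-30d-5p, miR-361-3p, miR-195a-5p, miR-103-3p, miR-1954, miR-7a-5p and miR-877-3p, with adjusted p from 0.0648 to 1. With title code and sex alone in the model 43 miRNA were called, 26 of them from the 32. The main fit took its spread from all samples of the series, and repeat samples of a mouse were treated as independent. With only the 48 samples in the fit 14 of the 32 passed, and with the mouse as a block 13. The 14 were miR-375-3p, miR-150-5p, miR-155-5p, miR-186-5p, miR-122-5p, miR-802-5p, miR-192-5p, miR-34c-3p, miR-125b-5p, miR-202-3p, miR-199a-5p, miR-7646-5p, miR-24-3p and miR-34a-5p. Not 1 tested miRNA separated the arms without any overlap. Only miR-375-3p and miR-150-5p had at least 24 of the 32 irradiated mice outside the range of the sham mice.

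**Figure D1:**
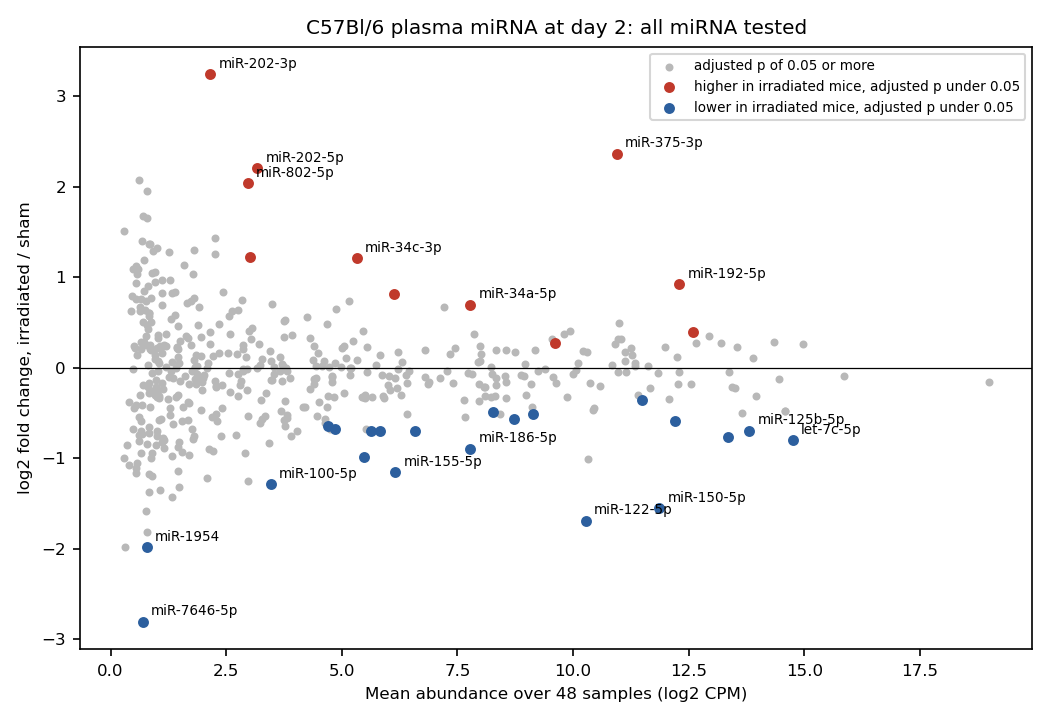
Fitted log2 fold change (irradiated over sham, y axis) against mean abundance in log2 CPM (x axis) for the 483 miRNA tested. The 11 red points were higher and the 21 blue points lower in irradiated mice at an adjusted p under 0.05, and miR-375-3p stands apart among the abundant miRNA.

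miR-375-3p, which restrains insulin secretion in pancreatic beta cells and marks endocrine and mucosal epithelial cells, had the smallest p. Its abundance in irradiated mice ran from 10.27 over a median of 11.72 to 12.93 log2 CPM (counts scaled to a common library size), against 8.79, 9.49 and 10.30 in sham mice. Of the 32 irradiated mice, 30 lay above the highest sham mouse. In linear units the medians were 3370 CPM and 716 CPM. The fitted difference was 2.37 ± 0.19 on the log2 scale (± standard error throughout the fitted values), a 5.15-fold rise (adjusted p = 7.38e-30). It was present in each combination of code and sex, at 2.84 in G1 females, 1.77 in G1 males, 2.34 in G3 females and 2.35 in G3 males.

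The other members of the endocrine list did not follow miR-375-3p. miR-7a-5p, an islet and brain miRNA, was lower in irradiated mice, with 5.18, 6.27 and 7.77 (lowest, median and highest log2 CPM) against 5.78, 7.08 and 8.01 in sham mice, and the arms overlapped over most of that range. Its difference was −0.70 ± 0.23 (adjusted p = 0.0450). miR-7b-5p had 0.05 ± 0.58 and miR-7a-1-3p, from the opposite arm of a miR-7a hairpin, had −0.37 ± 0.23, neither past the threshold. Of the acinar pancreas miRNA, 3 were tested and 0 called. The largest difference among them was 1.04 ± 0.42 for miR-216a-5p (unadjusted p = 0.0145, adjusted 0.117), whose median was 2.36 log2 CPM in irradiated mice.

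Of the lymphocyte miRNA tested, miR-150-5p and miR-155-5p were lower in irradiated mice. miR-150-5p, a regulator of B and T cell maturation that is abundant in resting lymphocytes, ran from 10.19 over a median of 11.39 to 12.38 log2 CPM in irradiated mice and from 11.88 over 12.63 to 13.67 in sham mice. Here 28 of the 32 irradiated mice lay below the lowest sham mouse. The difference was −1.55 ± 0.15, a 2.93-fold fall (adjusted p = 9.72e-23). It was largest in G1 females (−2.19) and smallest in G3 males (−0.90), a spread for which the interaction with sex had an adjusted p of 0.0845.

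miR-155-5p, which is induced in activated lymphocytes and macrophages, fell 2.22-fold. Its values were 3.62, 5.87 and 7.54 log2 CPM in irradiated mice and 5.57, 7.18 and 8.18 in sham mice, and 11 of the 32 irradiated mice lay below the lowest sham mouse. The difference was −1.15 ± 0.19 (adjusted p = 2.77e-07). Over the 6 lymphocyte miRNA tested, 0 were positive, 2 were called lower and the median was −0.26, beside 4.35% called lower and a median of −0.06 over all miRNA tested. The remaining 4 were within −0.34 and −0.07, among them miR-342-3p with −0.18 ± 0.14 (adjusted p = 0.492) and miR-181a-5p with −0.07 ± 0.23.

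Among 6 further leukocyte miRNA, 1 was called lower, beside 4.35% over all miRNA. miR-146b-5p, a brake on inflammatory signalling, had 3.80, 5.38 and 6.79 log2 CPM in irradiated against 5.08, 6.17 and 6.96 in sham mice, and a difference of −0.70 ± 0.20 (adjusted p = 0.0114). It did not pass with the mouse as a block (−0.82, adjusted p = 0.146) or with the depth term (−0.78, adjusted p = 0.0670). Its relative miR-146a-5p shares the seed GAGAACU and had −0.19 ± 0.14 (adjusted p = 0.494). The neutrophil miRNA miR-223-3p had 0.14 ± 0.18 and miR-142a-3p, found in all blood cells, −0.07 ± 0.26. The summed level of the lymphocyte list had a median of 13.18 log2 CPM in irradiated mice and of 13.86 in sham mice. In plasma, fewer cells of a type and less miRNA released per cell cannot be told apart.

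**Figure D2:**
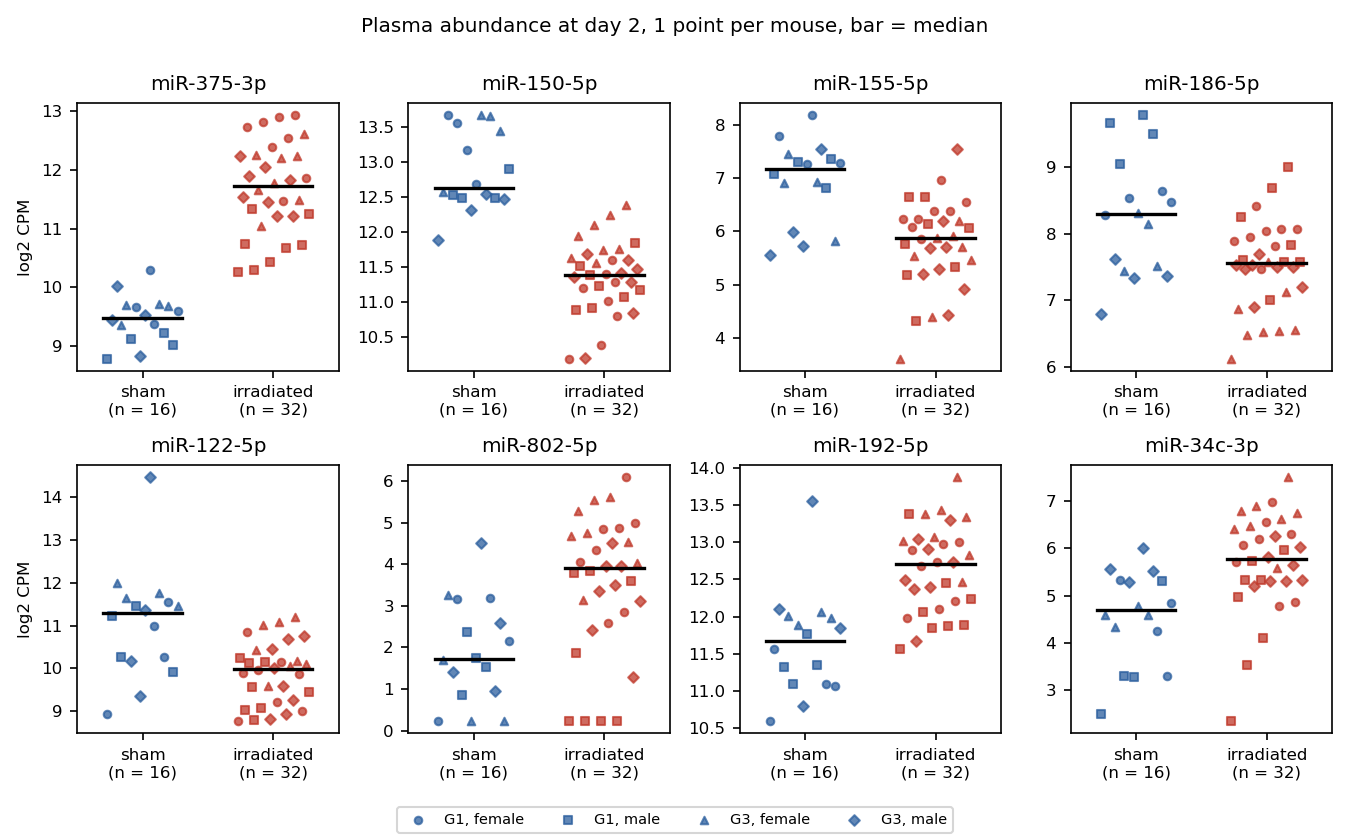
Abundance in log2 CPM (y axis) of the 8 miRNA with the smallest adjusted p in the 16 sham (blue) and 32 irradiated (red) mice, 1 point per mouse with marker shapes for title code and sex and black bars for medians. The arms hardly overlapped for miR-375-3p and miR-150-5p and overlapped widely for the others, and 1 sham G3 male was the highest sham mouse for miR-122-5p, miR-192-5p and miR-802-5p.

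Liver miRNA moved in different directions. miR-122-5p, the dominant hepatocyte miRNA, ran from 8.77 over 9.98 to 11.21 log2 CPM in irradiated mice and from 8.94 over 11.29 to 14.48 in sham mice. The difference was −1.69 ± 0.31, a 3.23-fold fall (adjusted p = 5.52e-06). The sham maximum came from 1 G3 male, whose own value before irradiation was 10.99, and the next highest sham mouse was at 12.01. Without that mouse, an alternative chosen after seeing the data, the difference was −1.01 (adjusted p = 0.0263). miR-122-3p, the opposite arm, had reads in few samples and a difference of −0.01 ± 0.84.

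miR-192-5p, made in liver, gut and kidney epithelium, rose 1.9-fold. It ran from 11.57 over 12.71 to 13.88 log2 CPM in irradiated mice and from 10.60 over 11.67 to 13.56 in sham mice, and the sham maximum was the same G3 male. The difference was 0.92 ± 0.19 (adjusted p = 5.78e-05), and 1.17 without that mouse. miR-215-5p, which shares the seed UGACCUA with miR-192-5p, had 0.32 ± 0.20 (adjusted p = 0.405). miR-194-5p, from the hairpin 199 bases from miR-192-5p, had −0.28 ± 0.27 and did not pass the threshold either.

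miR-802-5p, a miRNA of liver, gut and kidney that is tied to glucose handling, had low counts. It ranged from 0.23, the value of a sample without reads, over a median of 3.90 to 6.10 log2 CPM in irradiated mice, and from 0.23 over 1.72 to 4.50 in sham mice. Reads were found in 28 of 32 irradiated and 13 of 16 sham mice, 471 and 83 reads in all. The difference was 2.04 ± 0.38, a level 4.11-fold higher than in sham mice (adjusted p = 9.12e-06). With the mouse as a block it did not pass the threshold (1.47 ± 0.57, adjusted p = 0.215). Against their own earlier samples irradiated mice changed by 0.12 ± 0.32 (adjusted p = 0.828). Sham mice changed by −1.35 ± 0.48 (adjusted p = 0.0447). With title code and sex in the model, females had 2.82 ± 0.64 (adjusted p = 0.00149). Males had 1.05 ± 0.61 (adjusted p = 0.558), and the difference between the sexes did not pass (adjusted p = 0.291).

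The miR-34 family rose in part. miR-34c-3p had 2.35, 5.78 and 7.51 log2 CPM in irradiated and 2.50, 4.69 and 6.00 in sham mice, and 14 of 32 irradiated mice exceeded the highest sham mouse. Its difference was 1.21 ± 0.26, a 2.32-fold rise (adjusted p = 0.000172). miR-34a-5p, the most abundant member, had 6.37, 8.07 and 9.12 against 6.05, 7.09 and 8.94 log2 CPM, so that the ranges overlapped while the medians were nearly 1 log2 unit apart. The difference was 0.70 ± 0.21 (adjusted p = 0.0170).

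Of 6 members tested, 2 were called higher, 5 were positive and the median was 0.47, beside 2.28% called higher and a median of −0.06 over all miRNA. miR-34b-3p, which shares the seed AUCACUA with miR-34c-3p and lies 530 bases away, had 0.73 ± 0.27 (adjusted p = 0.0709), and with title code and sex in the model 1.06 (adjusted p = 0.00167). The 5p arm of the same hairpin as miR-34c-3p, miR-34c-5p, had 0.24 ± 0.24 (adjusted p = 0.637). miR-449a-5p, which shares the seed GGCAGUG with miR-34a-5p and is typical of ciliated airway cells, had −0.80 ± 0.50 (adjusted p = 0.396) and no reads in the median irradiated mouse. Both called members had small differences in G3 males, 0.17 for miR-34c-3p and 0.32 for miR-34a-5p, against 1.17 to 2.13 and 0.37 to 1.23 in the other combinations of code and sex.

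Of the 9 tested miRNA with the let-7 seed, let-7c-5p and let-7b-5p were lower in irradiated mice and the other 7 did not pass the threshold. let-7c-5p had 13.10, 14.52 and 15.83 log2 CPM in irradiated and 13.47, 15.35 and 16.85 in sham mice, and the difference was −0.80 ± 0.23 (adjusted p = 0.0113). let-7b-5p had 11.67, 13.14 and 14.51 against 12.16, 14.09 and 15.28, with −0.77 ± 0.22 (adjusted p = 0.0117). Of the 9, let-7c-5p had the highest median level in both arms, and both called members were spread over more than 2 log2 units within each arm. let-7c-5p and let-7b-5p stayed past the threshold in 10 and 11 of 19 alternatives. Neither passed with DESeq2 (adjusted p = 0.0528 and 0.0640) or after quantile normalization with limma (0.295 and 0.260). With only the 48 samples in the edgeR fit they did not pass either (0.0952 and 0.116).

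let-7a-5p, 1 base away from let-7c-5p, had 0.23 ± 0.24 (adjusted p = 0.655), and let-7f-5p had 0.12 ± 0.24 (adjusted p = 0.869). let-7i-5p, whose level lay near that of let-7b-5p, had −0.21 ± 0.24 and let-7g-5p had −0.23 ± 0.14. The passenger strand of the chr15 copy, let-7c-2-3p, had −0.07 ± 0.30. Differences between family members were not tested. In G3 males the fitted values of let-7c-5p and let-7b-5p were 0.02 and 0.04, against −0.45 to −1.65 in the other combinations.

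The miR-125 and miR-99/100 families, which are transcribed with let-7 members from shared clusters and are known for roles in blood stem cells and growth signalling, had negative values for all tested 5p arms. miR-125b-5p had 12.56, 13.43 and 14.87 log2 CPM in irradiated and 13.33, 14.19 and 15.47 in sham mice, and 12 of 32 irradiated mice fell below the lowest sham mouse. The difference was −0.69 ± 0.16 (adjusted p = 0.000454), and with the mouse as a block −0.67 ± 0.24 (adjusted p = 0.161). miR-125a-5p had −0.51 ± 0.15 (adjusted p = 0.0114), and miR-351-5p, the third tested miRNA with the seed CCCUGAG, had −0.24 ± 0.26.

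miR-100-5p had 0.23, 3.20 and 6.4 log2 CPM in irradiated and 1.53, 4.55 and 7.01 in sham mice, and a difference of −1.29 ± 0.35 (adjusted p = 0.00894). Reads were found in 26 of 32 irradiated and in all 16 sham mice. It did not pass with the mouse as a block (adjusted p = 0.123), with the depth term (−0.99, adjusted p = 0.219), with DESeq2 (adjusted p = 0.0528) or with only the 48 samples in the fit (adjusted p = 0.126). Of the other miRNA with the seed ACCCGUA, miR-99a-5p had −0.67 ± 0.25 (adjusted p = 0.0827) and miR-99b-5p −0.21 ± 0.16 (adjusted p = 0.494). With title code and sex in the model miR-99a-5p passed the threshold (−0.74, adjusted p = 0.0203).

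For several called miRNA the other arm of the hairpin was tested and not called. miR-15b-3p had 3.30, 5.53 and 7.35 log2 CPM in irradiated and 5.32, 6.32 and 7.83 in sham mice, with −0.70 ± 0.18 (adjusted p = 0.00401). The arm miR-15b-5p, at a like level, had a difference of −0.0028 ± 0.22 and the cluster neighbour miR-16-5p had −0.16 ± 0.15, neither called. In the following 3 the called arm was the less abundant of the pair. miR-93-3p, from the miR-106b cluster in the Mcm7 gene, had −0.64 ± 0.18 (adjusted p = 0.00996), against −0.22 ± 0.15 for miR-93-5p. miR-361-3p had −0.67 ± 0.19 (adjusted p = 0.0117), against −0.20 ± 0.13 for miR-361-5p. miR-199a-5p, a miRNA of fibroblasts and smooth muscle, had −0.99 ± 0.26 (adjusted p = 0.00632), with 0.23, 5.46 and 7.0 against 5.17, 6.14 and 7.66 log2 CPM, and the arm miR-199a-3p had −0.46 ± 0.16 (adjusted p = 0.0601). With the depth term the values of miR-93-3p, miR-15b-3p and miR-361-3p were −0.036 (adjusted p = 1), −0.35 (adjusted p = 0.530) and −0.44 (adjusted p = 0.470). With title code and sex alone in the model these 3 did not pass either (adjusted p = 0.104, 0.0780 and 0.105), while miR-199a-5p passed in both models. The arm miR-199a-3p passed with title code and sex alone in the model (−0.41, adjusted p = 0.0277). The differences between hairpin arms were not tested.

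Further abundant miRNA were lower in irradiated mice. miR-186-5p had 6.12, 7.56 and 9.0 log2 CPM in irradiated and 6.80, 8.30 and 9.79 in sham mice, with −0.89 ± 0.16, a 1.86-fold fall (adjusted p = 5.52e-06). In G3 males its value was 0.24, and with the depth term the difference was −0.52 (adjusted p = 0.0648). miR-26b-5p had −0.59 ± 0.16 (adjusted p = 0.00996), while miR-26a-5p, with the same seed UCAAGUA, had −0.06 ± 0.18 (adjusted p = 0.894). miR-103-3p, a regulator of insulin sensitivity, had −0.56 ± 0.18 (adjusted p = 0.0389). In G3 males miR-26b-5p had 0.38 and miR-103-3p 0.52. These 2 stayed past the threshold in 9 and 6 of 19 alternatives. miR-195a-5p of the miR-15/16 seed family had −0.48 ± 0.15 (adjusted p = 0.0240), and the other 5 tested members of that family did not pass the threshold. miR-195a-5p did not pass with title code and sex in the model (adjusted p = 0.0714). miR-30d-5p had the smallest called fall, −0.36 ± 0.10 (adjusted p = 0.0115), and 13 of 32 irradiated mice lay below the lowest sham mouse.

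The remaining rises were modest or rested on few reads. miR-24-3p had 11.69, 12.80 and 13.76 log2 CPM in irradiated and 11.40, 12.37 and 12.76 in sham mice, and 17 of 32 irradiated mice exceeded the highest sham mouse. Its difference was 0.39 ± 0.11 (adjusted p = 0.00894). Against their own earlier samples sham mice rose as well, by 0.50 ± 0.14 (adjusted p = 0.00613), and irradiated mice by 0.87 ± 0.10. For miR-24-3p the value in G3 males was −0.16. Over all males its difference was 0.13 ± 0.14 (adjusted p = 0.754), with title code and sex in the model. Its cluster neighbours miR-23a-3p and miR-27a-3p had 0.28 ± 0.11 (adjusted p = 0.0921) and 0.26 ± 0.13 (adjusted p = 0.212). miR-23a-3p is also the denominator of the hemolysis index. miR-672-5p had 0.81 ± 0.24 (adjusted p = 0.0181), with 12 of 32 irradiated mice above the sham range, all of them female. With title code and sex in the model, females had 1.11 ± 0.26 (adjusted p = 0.00247). Males had 0.25 ± 0.26 (adjusted p = 0.754), and the difference between the sexes did not pass (adjusted p = 0.199). miR-672-5p did not pass with limma-voom, with only the 48 samples or with the mouse as a block (adjusted p = 0.109, 0.161 and 0.600). miR-744-5p had 0.27 ± 0.09 (adjusted p = 0.0450), and miR-877-3p, processed from an intron of Abcf1, had 1.22 ± 0.41 (adjusted p = 0.0480) on 330 reads in irradiated and 115 in sham mice.

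miR-7646-5p and miR-1954 were called lower on very few reads. miR-7646-5p had 9 reads in 3 of 32 irradiated mice and 44 reads in 9 of 16 sham mice, which is 0.308 and 1.69 CPM over the pooled reads of each arm. miR-1954 had 14 reads in 6 irradiated mice and 50 reads in 10 sham mice, or 0.479 and 1.92 CPM. Their fitted values of −2.81 ± 0.74 (adjusted p = 0.00632) and −1.99 ± 0.66 (adjusted p = 0.0429) depend on how samples without reads are treated and are no bounds. Irradiated samples were the less deeply sequenced ones. Over the alternatives that gave a value, miR-1954 remained past the threshold in 3 of 17 and miR-7646-5p in 11 of 17.

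miR-202, the gonadal miRNA, differed in females. In irradiated females miR-202-3p ran from 2.58 over 5.07 to 6.39 log2 CPM, with 576 reads in all 16 mice, and in sham females from 0.23 over 1.90 to 3.50, with 32 reads in 5 of 8 mice. In males 1 read was found in 16 irradiated mice and 10 reads in 4 of 8 sham mice. The pooled difference of 3.24 ± 0.74 (adjusted p = 0.000588) had a counterpart in females alone, where it was 3.76 ± 0.58 (adjusted p = 4.62e-06). With title code and sex in the model over all 48 samples it did not pass the threshold (adjusted p = 0.879).

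The other arm of the same hairpin, miR-202-5p, had 4.75, 6.51 and 8.24 log2 CPM in irradiated females and 0.23, 4.36 and 6.07 in sham females. Males had 12 reads in 5 of 16 irradiated and 8 reads in 2 of 8 sham mice. The pooled difference was 2.2 ± 0.70 (adjusted p = 0.0305) and that in females 2.23 ± 0.50 (adjusted p = 0.00128), while the model with title code and sex over all samples gave no call (adjusted p = 0.0715). With the mouse as a block miR-202-5p passed the threshold (2.45 ± 0.53, adjusted p = 0.00215) and miR-202-3p did not (2.37 ± 0.93, adjusted p = 0.221).

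The lists for other sources held few or no calls. Of 6 red blood cell miRNA 0 were called, with a median of −0.23. miR-451a had −0.35 ± 0.24 (unadjusted p = 0.156, adjusted p = 0.454), and miR-486a-5p and miR-486b-5p, whose mature sequences are nearly the same, had −0.48 ± 0.18 each (adjusted p = 0.0709). Of 7 muscle miRNA 0 were called and the median was −0.51, with −1.01 ± 0.43 for miR-1a-3p (adjusted p = 0.147) and a spread of the summed level from 10.72 to 16.35 log2 CPM among irradiated mice. Of 10 epithelial miRNA 8 were positive and 0 called, with a median of 0.32, and miR-182-5p (0.67 ± 0.26, adjusted p = 0.0952) passed with title code and sex in the model (adjusted p = 0.00740). Of 7 stromal miRNA 1, miR-199a-5p, was called and 0 were positive (median −0.44). With title code and sex in the model 3 stromal miRNA were called lower, beside 25 of all 483 miRNA. With the mouse as a block 0 were called, beside 13 of all 483. The 2 endothelial miR-126a arms had −0.13 ± 0.14 and 0.11 ± 0.13. Of 13 members of the miR-17 clusters, which drive cell proliferation, 0 were called (median −0.17), and of 6 miRNA tied to fibrosis 0 were called (median 0.06), including miR-21a-5p (−0.09 ± 0.11) and miR-29a-3p (−0.05 ± 0.11). The background for these counts is the 6.63% of all miRNA called.

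Before irradiation no difference was detected between the mice of the later arms. None of the 483 miRNA passed the threshold between the mice later irradiated and those later sham irradiated (edgeR, 0 called, 15 at an unadjusted p under 0.05, and 0 with limma-voom). None of the 32 miRNA called at day 2 had an unadjusted p under 0.05 before irradiation, and their largest difference then was 0.62 for miR-802-5p.

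Each mouse was then compared with its own earlier sample. In this fit with the mouse as a block, 13 miRNA (2.69%) changed differently in the arms, 5 upward and 8 downward, and all 13 were among the 32. They were miR-375-3p (2.12 ± 0.20, adjusted p = 6.7e-13), miR-150-5p (−1.52 ± 0.18, adjusted p = 1.09e-09), miR-34c-3p (1.84 ± 0.35, adjusted p = 0.000184), miR-202-5p, miR-122-5p (−1.45 ± 0.33, adjusted p = 0.00333), miR-34a-5p (0.91 ± 0.22, adjusted p = 0.00593), miR-192-5p (0.99 ± 0.24, adjusted p = 0.00628), miR-155-5p, let-7b-5p, miR-186-5p, miR-26b-5p, miR-7a-5p and let-7c-5p, the last 6 with adjusted p between 0.0177 and 0.0487. All 32 had the same sign in this fit as in the comparison at day 2. Both use the same day 2 samples, so the match in sign is no separate evidence. The 19 that did not pass here were miR-802-5p, miR-125b-5p, miR-202-3p, miR-15b-3p, miR-199a-5p, miR-7646-5p, miR-100-5p, miR-24-3p, miR-93-3p, miR-146b-5p, miR-125a-5p, miR-30d-5p, miR-361-3p, miR-672-5p, miR-195a-5p, miR-103-3p, miR-1954, miR-744-5p and miR-877-3p, with adjusted p from 0.0786 to 0.639.

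The 2 arms contributed unequally to these changes. miR-375-3p rose in 32 of 32 irradiated mice, with a median change of 1.65 log2 units, and in 3 of 16 sham mice (median −0.38). miR-150-5p fell in 32 of 32 irradiated mice (median −2.18), but the sham mice fell as well, by a median of 0.70 and in 14 of 16 mice. miR-34a-5p rose in 32 of 32 irradiated mice (median 1.49) and in 14 of 16 sham mice (median 0.46). For let-7c-5p the irradiated mice stayed near their own level (median change 0.10, 19 of 32 up) while sham mice rose (median 1.46, 13 of 16 up). miR-199a-5p had a median change of 0.66 in irradiated mice (21 of 32 up) and of 1.28 in sham mice (16 of 16 up). For miR-155-5p the sham mice rose in 12 of 16 cases (median 0.69) and the irradiated mice fell in 21 of 32 (median −0.46). For miR-202-5p the sham mice fell in 13 of 16 cases (median −1.21) and the irradiated mice rose in 20 of 32 (median 0.40). From before irradiation to day 2, 73 miRNA (15.1%) changed in sham mice and 157 (32.5%) in irradiated mice. Within an arm, time point and sequencing run cannot be told apart, and the source of these changes was not tested.

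**Figure D3:**
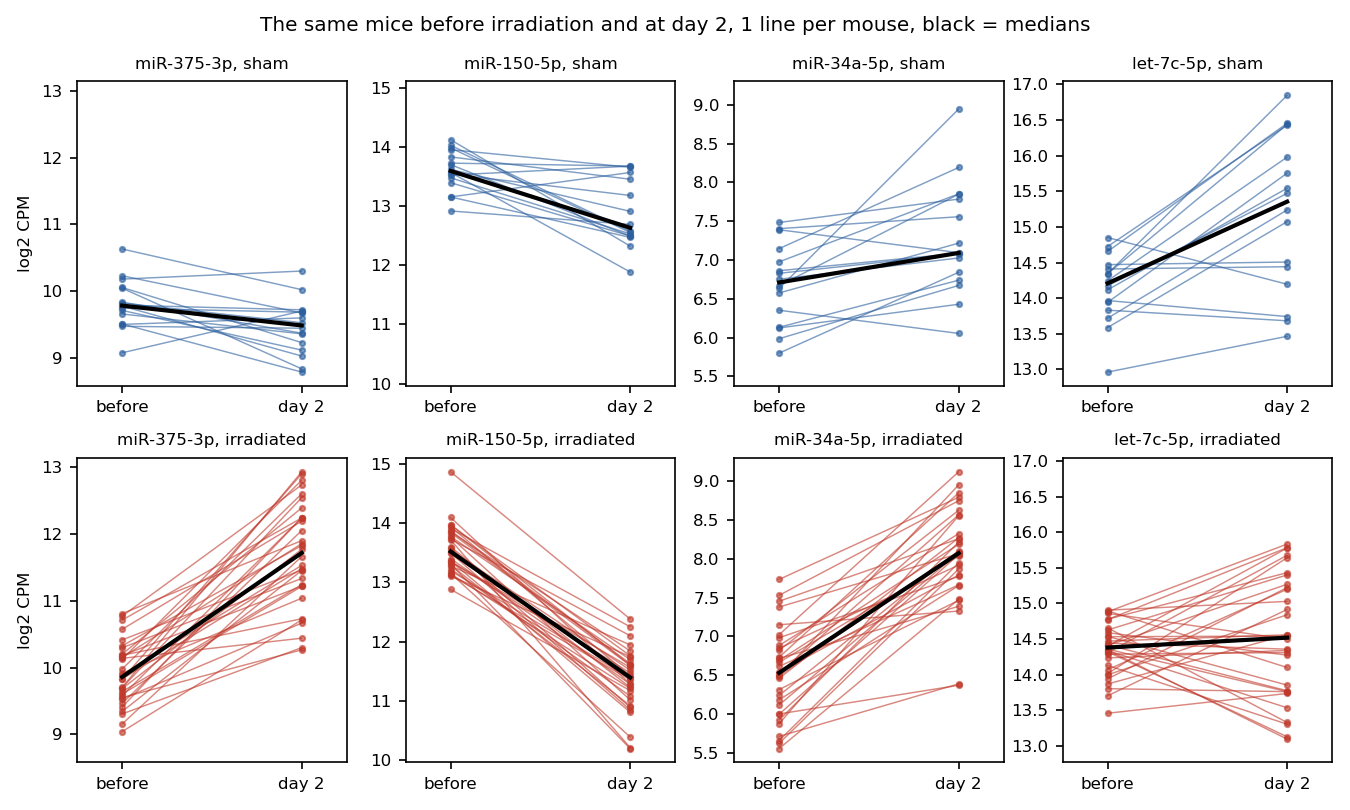
Abundance in log2 CPM (y axis) of 4 miRNA in the same mice before irradiation and at day 2 (x axis), with 16 sham mice in the upper row and 32 irradiated mice in the lower row, 1 line per mouse and medians in black. miR-375-3p rose and miR-150-5p fell in all 32 irradiated mice. The let-7c-5p median rose in sham mice and lay near its earlier level in irradiated mice.

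For miR-125b-5p and miR-125a-5p the fall in irradiated mice was larger in females than in males. In the model with title code and sex, 61 miRNA (12.6%) passed in females and 4 (0.828%) in males, while the difference between the sexes itself passed for 4 (0.828%). These were miR-202-3p, for which few reads were found in males, miR-125b-5p (females −1.17 ± 0.18, males −0.08 ± 0.19), miR-125a-5p (females −0.84 ± 0.17, males 0.09 ± 0.18) and miR-126a-3p, which was not among the 32. For miR-150-5p, let-7c-5p, let-7b-5p and miR-24-3p the difference between the sexes had adjusted p from 0.0845 to 0.0846. The G1 male sham samples had a median of 2924893 reads and a hemolysis index of 1.10, against 808061 reads and −0.28 in G1 irradiated males, and the G3 irradiated females had an index of −2.40 against −0.68 in their sham mice. The part of these values in the sex differences was not tested.

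No miRNA passed the threshold for a difference in response between the codes G1 and G3 (edgeR, 0 called, 46 at an unadjusted p under 0.05). Within G1 29 miRNA (6%) were called and within G3 11 (2.28%). miR-375-3p had 2.30 in G1 and 2.34 in G3, miR-155-5p −1.20 and −0.93, miR-192-5p 1.26 and 0.82, miR-34a-5p 0.80 and 0.74, and miR-150-5p −1.74 and −1.21. miR-122-5p had −0.96 in G1 and −1.89 in G3, where the high sham mouse belongs. Of the 32 miRNA, 17 had the same sign in all 4 combinations of code and sex. The pooled sign was matched by 31 in G1 females, 28 in G1 males, 32 in G3 females and 20 in G3 males. The 32 and their pooled signs come from these same mice, so part of this match is built in. The median size of the difference over the 32 was 0.36 in G3 males and 1.20 in G3 females.

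**Figure D4:**
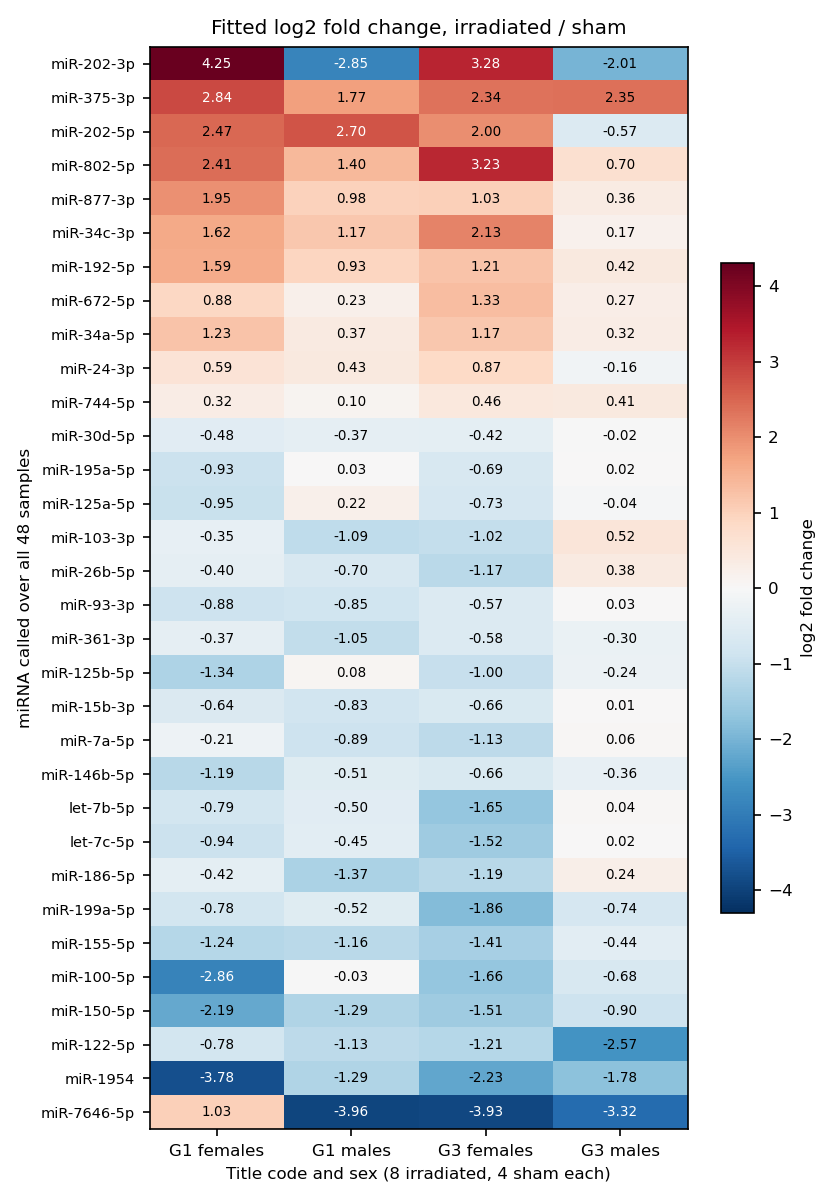
Fitted log2 fold change (irradiated over sham, colour and printed value) of the 32 called miRNA (rows) in the 4 combinations of title code and sex (columns), each with 8 irradiated and 4 sham mice. miR-375-3p, miR-150-5p, miR-155-5p, miR-122-5p and miR-192-5p keep their sign in every column, the G3 male column is the palest, and miR-202-3p and miR-7646-5p are among those whose sign differs between columns.

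The same contrast was set beside C57Bl/6 at day 5 and C3H at day 2, which use other mice. At day 5, 68 miRNA (14.1%) were called, and 15 of the 32 were among them. The sign at day 2 was kept by 24 of the 32. The change from day 2 to day 5 passed for 32 miRNA (6.63%), 19 upward and 13 downward, and 8 of them were from the day-2 list. With DESeq2's size factors the split was 5 upward and 19 downward, and the median change over all miRNA moved from 0.07 to −0.10. The rise of miR-375-3p was smaller at day 5 (1.22 ± 0.18, difference −1.15 ± 0.24, adjusted p = 0.000360), and that of miR-34a-5p was larger (1.70 ± 0.22, difference 1.01 ± 0.29, adjusted p = 0.0170). miR-24-3p turned from 0.39 to −0.30 ± 0.10 and miR-30d-5p from −0.36 to 0.26 ± 0.11, and for both the difference between the days passed the threshold (adjusted p = 0.000583 and 0.00236). miR-150-5p (−1.10 ± 0.15 at day 5), miR-155-5p (−1.41 ± 0.19), miR-122-5p (−1.74 ± 0.31) and miR-192-5p (0.75 ± 0.18) were called at both days, and their differences between the days did not pass the threshold.

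In C3H mice at day 2, 24 miRNA (4.97%) were called, 12 of them from the C57Bl/6 list, and all 32 had the same sign. The difference between the strains passed for 3 miRNA (0.621%), 1 upward and 2 downward in C57Bl/6, and for 1 upward with DESeq2's size factors. 1 of them was among the 32: miR-375-3p rose by 1.16 ± 0.18 in C3H and by 2.37 ± 0.19 in C57Bl/6, a difference of 1.21 ± 0.24 (adjusted p = 0.000278). The other 2, miR-486a-5p and miR-486b-5p, had differences of −0.93 ± 0.25 and −0.93 ± 0.26 between the strains (adjusted p = 0.0460 for both). miR-150-5p (−1.70 ± 0.14) and miR-155-5p (−1.51 ± 0.19) in C3H lay near the C57Bl/6 values. miR-34c-3p had 1.92 ± 0.26 in C3H against 1.21 ± 0.26, and miR-802-5p 0.37 ± 0.32 against 2.04 ± 0.38, and neither difference between the strains passed the threshold (adjusted p = 0.605 and 0.0697).

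**Figure D5:**
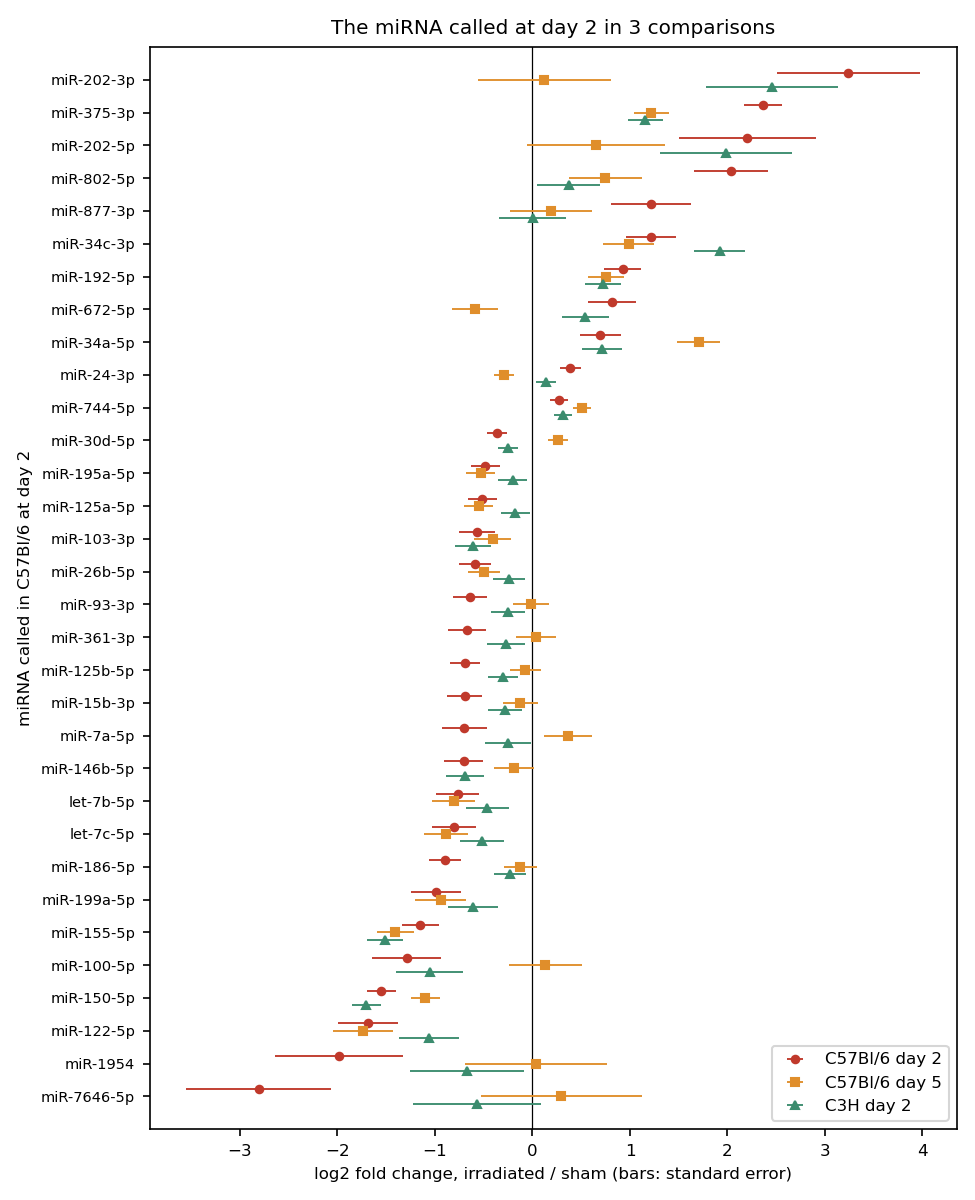
Fitted log2 fold change (irradiated over sham, x axis) with standard error bars for the 32 miRNA called in C57Bl/6 at day 2 (rows), in C57Bl/6 at day 2 (red circles), C57Bl/6 at day 5 (orange squares) and C3H at day 2 (green triangles). miR-375-3p lies at 2.37 in C57Bl/6 at day 2 and at 1.22 and 1.16 in the other comparisons, and miR-24-3p and miR-30d-5p lie on opposite sides of 0 at day 2 and day 5.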

How the data were processed

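Plasma miRNA was sequenced from QIAseq libraries. Per the labels and the study's methods, the authors trimmed the reads and aligned them to mouse miRNA (mm10), left out hemolysed plasma and shallow runs, and deposited raw counts of reads per mature miRNA. The miRBase release and any use of molecular identifiers are not given in the sources used here. Counts of 1915 miRNA in all samples were filtered with filterByExpr to 483, which held 99.99% of the reads of the series. They were scaled with TMM (0.479 to 1.59 in the 48 samples). The fit held 32 groups of strain, time point and arm, and repeat samples of a mouse were treated as independent in it. It used edgeR 4.0.16 (R 4.3.3) with the quasi-likelihood test and Benjamini-Hochberg adjustment. Standard errors are |log2 fold change| divided by the square root of F. Log2 CPM values (counts scaled to a common library size) used a prior count of 2. Library measures were compared by permutation (100000 resamples, two-sided). Differences by sex and title code came from the 48 samples, and the paired fit from 96 samples of 48 mice with the mouse as a block. The titles give the mouse number, which is the source of the pairing: over 99 abundant miRNA, samples of the same mouse correlated by 0.0725 on average in their deviations from group means and samples of different mice by −0.00285. Further models of the 48 samples held title code and sex, without or with log2 total reads. Alternatives used DESeq2 1.42.0 and limma 3.58.1 (voom, or quantile-normalized log2 RPM). Depth, at 413278 to 3303029 reads per sample, limits miRNA with few reads. Every called miRNA is named, with full values for the 10 with the smallest p and for the largest rise and fall. The members and the miRNA lists were chosen with earlier results of these data known. No sample pair held identical values, and 0 columns of other series were present. Mature sequences and hairpin positions are from RefSeq (GRCm38.p6), with gene overlaps from GENCODE.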

Additional observations from a re-analysis of the deposited data

Results flagged for a closer look

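In the following the difference itself was tested with edgeR, as an interaction. Between the sexes, the log2 fold change of miR-125b-5p was lower in females by −1.09 ± 0.27 (adjusted p = 0.0405), that of miR-125a-5p by −0.929 ± 0.247 (adjusted p = 0.0482), and that of miR-202-3p was higher by 6.19 ± 1.08 (adjusted p = 0.000269), the last a fitted value on 11 reads in males that is no bound. Between the strains, miR-375-3p was higher in C57Bl/6 than in C3H by 1.21 ± 0.24 (adjusted p = 0.000278). From day 2 to day 5, the log2 fold change of miR-375-3p moved by −1.15 ± 0.24, of miR-672-5p by −1.40 ± 0.34, of miR-24-3p by −0.68 ± 0.15 and of miR-202-3p by −3.12 ± 0.98. In the same interval that of miR-34a-5p moved by 1.01 ± 0.29, of miR-7a-5p by 1.07 ± 0.34, of miR-186-5p by 0.77 ± 0.24 and of miR-30d-5p by 0.62 ± 0.15, with adjusted p from 0.000360 to 0.0352 for these 8. Day 2 and day 5 were sampled in different mice. Groups of 16 and 32 were too large for the check on single outlying samples.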

How the results depend on the processing

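The 32 calls at day 2 became 24 with DESeq2, 27 with limma-voom, 28 with DESeq2's size factors and 28 after quantile normalization. With title code and sex as a block 43 were called, 26 of them from the 32. The count was 71 without the filter on low counts, 14 with only the 48 samples in the fit, 58 without G3 males, 20 without G1 females, 7 without G3 females, 7 in G3 alone and 7 in males alone. With the mouse as a replicate block 13 remained, and with title code, sex and log2 total reads as covariates, an alternative chosen after seeing the data, 20 were called, 16 of them from the 32. The cause of these moves was not tested, beyond fewer samples or more miRNA entering the fit. miR-375-3p, miR-150-5p and miR-155-5p stayed past the threshold in all 19 alternatives, and 31 of the 32 kept their direction in every alternative that gave a value. The exception was miR-202-3p, at −2.67 in males alone (adjusted p = 0.557), where few reads were found. miR-122-5p did not pass in G1 alone or in females alone, miR-192-5p in G3 alone or in males alone, and miR-34c-3p in these or without G3 females. The count of differences between strains, 3, became 24 without the filter and 1 with DESeq2's size factors. With limma-voom the differences between the days fell from 32 to 7 and those between the sexes rose from 4 to 7. The replicate block, which holds the same day 2 samples, changed no sign. Lower depth in irradiated mice limits what can be said of miRNA with few reads.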
